A study of Mus musculus with 12 samples.

Results

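Tibialis anterior muscle of tumour-bearing mice fed ursolic acid (KPC_UA) was compared with the same muscle of tumour-bearing mice fed standard chow (KPC), using 8 of the 12 RNA sequencing libraries of the study, 4 per group. All genes in the deposited table of this comparison were taken, 13557 in number, and 13522 of them had a mean of at least 10 normalised reads and were tested, while 35 did not. In both groups KPC cells, a mouse pancreatic cancer line, had been injected into the pancreas of C57BL/6J mice, and the diet was the only labelled difference. The third group, Sham, held 4 libraries from tumour-free C57BL/6J mice on standard chow and is used only for side-by-side values. The study asked whether ursolic acid acts on the muscle wasting that accompanies these tumours. Age and sex, and the dose of ursolic acid, were not stated in the labels. These also do not say that each library came from a different mouse, so every p-value measures only the spread between these samples. Libraries are called by group and replicate number, as in KPC_UA 1 or KPC 4.

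Ursolic acid is a triterpenoid of fruit peel that has been studied in mice as an agent against muscle atrophy. Wasting muscle is known for a shared transcriptional programme. FOXO transcription factors and the glucocorticoid receptor raise muscle-specific ubiquitin ligases, and proteasome and autophagy genes rise with them. Fuel use shifts to fatty acids through targets of the PPAR receptors, and genes of growth signalling and extracellular matrix often decline. Tibialis anterior is a fast-twitch muscle, so its RNA comes mainly from glycolytic fibres.

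Several stress and fasting genes were among the leading genes lower in KPC_UA. The mTORC1 inhibitor Ddit4 had a log2 fold change of -3.50, the FOXO target Depp1 -3.57, and the fasting-induced Angptl4 -2.61. The ubiquitin ligases Trim63 and Fbxo32 stood at -2.51 and -1.97, but their groups overlapped. Without KPC 1 and KPC 4 both were at -0.98. Higher in KPC_UA were Tfrc, the transferrin receptor (2.25), Nmrk2, a muscle kinase of nicotinamide riboside (2.23), Smox, which oxidises spermine (1.70), and most collagen genes (median 0.92 over 24 genes). No gene passed limma at an adjusted p under 0.05, where the lowest adjusted p was 0.382. The authors' deposited adjusted p was under 0.05 for 99 genes, and the KPC libraries were spread widely for most of them.

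The KPC libraries differed more among themselves than the KPC_UA libraries did. On the main principal component, which held 59.9% of the variance, KPC_UA 1 to 4 lay at -38.4, -36.1, -17.03 and -27.3, and KPC 1 to 4 at 113, -25.03, -5.21 and 36.5. KPC 1 and KPC 4 stood apart from the rest, and KPC 2 lay among the KPC_UA libraries. As a root mean square over genes of log2 values, the median distance of KPC 2 from the KPC_UA libraries was 0.487, against 0.851 from the other KPC libraries. The median SD of log2 values over all genes was 0.233 in KPC_UA and 0.463 in KPC, and the SD was larger in KPC for 82.6% of genes. Reads in listed genes numbered 25.6 to 28.3 M in KPC_UA and 22.3 to 32.0 M in KPC. The 10 most abundant genes took 27.4 to 28.8% of reads in KPC_UA, 24.3% in KPC 1 and in KPC 4, and 28.9 and 28.2% in KPC 2 and KPC 3. Transcripts of over 5000 exonic bases were shifted against those under 2000 by -0.43 log2 units in KPC_UA 2, and by 0.32 in KPC 1 and -0.42 in KPC 4. The part of these library properties in the results was not tested. Most results below are therefore followed by the log2 fold change without KPC 1 and KPC 4.

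Limma, run two-sided on log2(value + 1), called 0 of 13522 genes (0%), while 1714 genes (12.7%) had an unadjusted p under 0.05, 836 of them higher (6.18%) and 878 lower (6.49%) in KPC_UA. EdgeR's quasi-likelihood test on the whole reads recovered from the values also called 0 of 13557 genes, with 2010 at an unadjusted p under 0.05. The authors' deposited table gave an adjusted p under 0.05 to 99 of the 12957 genes with an adjusted p there (0.764%), 26 higher (0.201%) and 73 lower (0.563%). DESeq2 on the recovered reads called 100 (0.772%), 27 higher and 73 lower. When limma gave each library a weight estimated from the data, 2988 genes were called (22.1%), 1402 higher (10.4%) and 1586 lower (11.7%). That fit weighted KPC 1 and KPC 4 at 0.103 and 0.241, against 0.974 and 7.67 for KPC 2 and KPC 3. KPC_UA 1 to 4 were weighted at 0.993, 0.868, 1.13 and 5.56, so KPC 3 and KPC_UA 4 counted most in their groups. The 4 values of each group did not overlap for 1071 genes (7.92%), of which 511 were higher (3.78%) and 560 lower (4.14%) in KPC_UA. The words higher and lower are used below for the direction of measured values, since limma called no gene. Where a gene described below has a deposited adjusted p under 0.05, it is printed, and the sign of every fold change is KPC_UA over KPC. Of the 118 genes that the naming rule took, 37 share exon bases with another annotated gene, most often on the other strand. Gm10603 (with C2cd3), Fbxo32 (with Gm15943), Cebpd (with Spidr), Tmem82, Cdkn1a, Gabarapl1, Irs2, Gadd45a, Il6ra, Nmrk2, Casq1 and Tpi1 are among them, and their values are less certain because it is unknown whether the reads were assigned by strand.

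**Figure D1:**
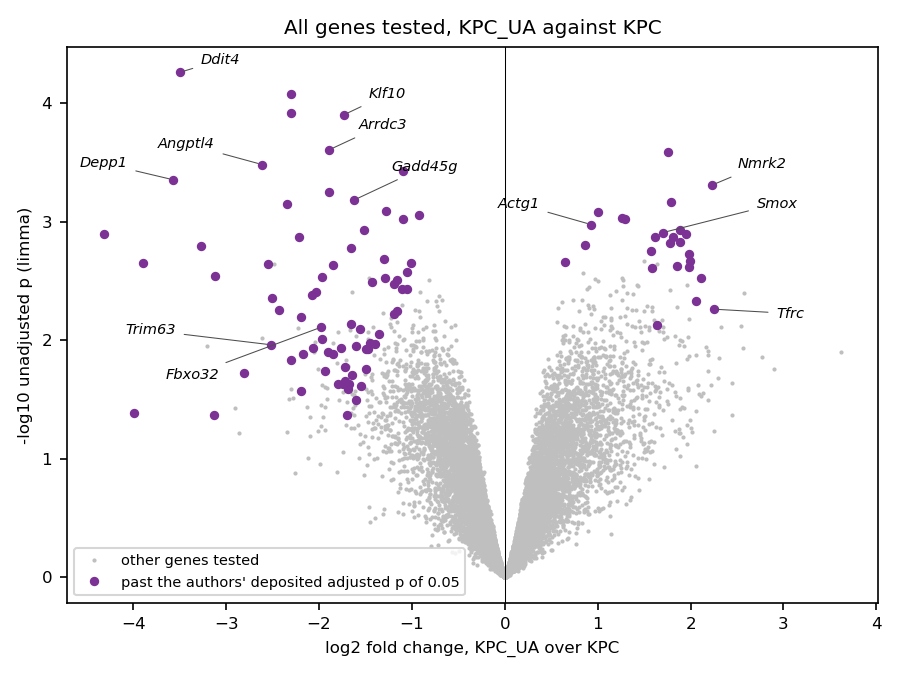
The plot of all genes tested sets the log2 fold change of KPC_UA over KPC (x axis) against the -log10 of the unadjusted limma p (y axis), with the 99 genes past the authors' deposited adjusted p of 0.05 in purple. There are 73 purple points on the lower side and 26 on the higher side, and Ddit4 has the smallest p.

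Ddit4, which blocks mTORC1 and so restrains protein synthesis, was at 463, 715, 761 and 814 normalised reads in KPC_UA 1 to 4, against 23335, 2764, 6509 and 7945 in KPC 1 to 4. Even the lowest KPC library was above every KPC_UA library (log2 fold change -3.50, SE 0.53, adjusted p = 1.21e-09 in the authors' deposited table). Without KPC 1 and KPC 4 the log2 fold change was -2.65. The gene lies at chr10:59949669-59951834 on the minus strand (GRCm38). Depp1, a regulator of autophagy induced by FOXO factors, showed the same arrangement, at 65.4, 122, 221 and 95.7 in KPC_UA 1 to 4, against 4198, 315, 1102 and 2364 in KPC 1 to 4 (log2 fold change -3.57, SE 0.70, adjusted p = 7.47e-07 in the authors' deposited table). Without KPC 1 and KPC 4 it stood at -2.36. In bulk muscle a lower transcript level can mean fewer cells of a type or less RNA per cell, and these cannot be told apart.

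Klf10, a zinc finger factor induced by TGF-beta, was at 236, 231, 501 and 278 normalised reads in KPC_UA 1 to 4, against 888, 704, 1314 and 1131 in KPC 1 to 4. Its KPC values were close to each other, with KPC 3 and not KPC 1 the highest, and the difference was nearly the same without KPC 1 and KPC 4 (log2 fold change -1.73, SE 0.29, -1.70 without them, adjusted p = 0.000239 in the authors' deposited table). Arrdc3, an arrestin-like adaptor for ubiquitination of receptors, was at 907, 688, 1089 and 916 in KPC_UA 1 to 4, against 6525, 1783, 3014 and 3359.8 in KPC 1 to 4 (log2 fold change -1.89, SE 0.34, adjusted p = 0.000100 in the authors' deposited table, -1.38 without KPC 1 and KPC 4). Gadd45g, a stress-inducible gene of growth arrest, was at 885, 1214, 912 and 1192 in KPC_UA 1 to 4, against 6054, 2915, 3478 and 1704 in KPC 1 to 4. It was lower in each KPC_UA library than in any KPC library, and its fold change hardly moved without KPC 1 and KPC 4 (log2 fold change -1.62, SE 0.33, -1.61 without them, adjusted p = 0.00116 in the authors' deposited table). With those 2 libraries left out, limma called 2 genes, Gadd45g and the mitochondrial carrier Slc25a25, both lower. Without KPC 2 it called 3, Ddit4, Depp1 and Gm10603, all lower. Gm10603 and Gm44117, unnamed transcripts among the 5 smallest limma p, each stood at -2.30 on the log2 scale, and their adjusted p in the authors' deposited table was 8.34e-07 and 0.000181.

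**Figure D2:**
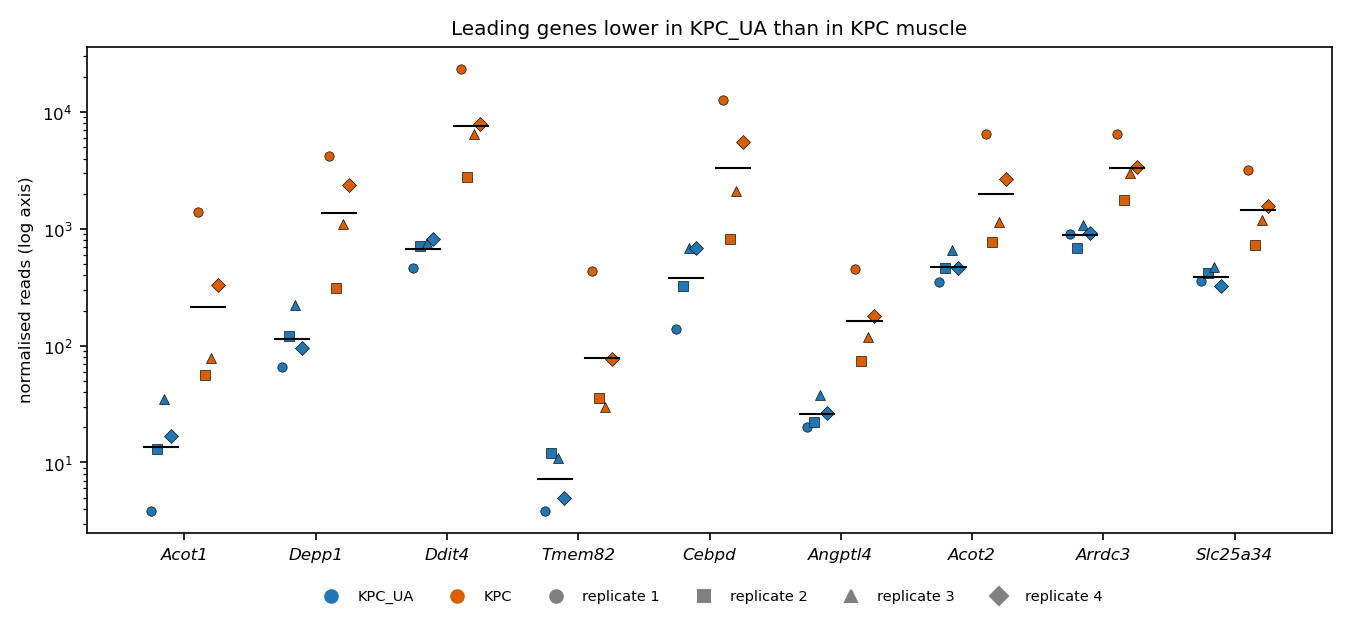
Normalised reads (log axis) of leading genes lower in KPC_UA than in KPC are plotted for each library, with replicate numbers as symbols and a line at the mean of the log values of each group. For Ddit4 the KPC_UA points lie between 463 and 814 and the KPC points between 2764 and 23335, and KPC 1 is the highest library for every gene drawn.

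The ubiquitin ligases of muscle atrophy were lower on average in KPC_UA, with a wide spread in KPC. Trim63 (MuRF1), which tags myosin and other thick filament proteins for breakdown, was at 5633, 8037, 17989.6 and 9193 normalised reads in KPC_UA 1 to 4, against 234229, 10687, 31711 and 100426 in KPC 1 to 4. KPC 2 lay below KPC_UA 3, so the groups overlapped (log2 fold change -2.51, SE 0.81, adjusted p = 0.0325 in the authors' deposited table). Fbxo32 (atrogin-1), which targets translation and myogenic factors, was at 8183, 14687, 33641 and 18399 in KPC_UA 1 to 4, against 183479, 25687, 41587 and 90441 in KPC 1 to 4. Again KPC 2 lay within the range of KPC_UA (log2 fold change -1.97, SE 0.60, adjusted p = 0.0269 in the authors' deposited table). Without KPC 1 and KPC 4 the log2 fold changes of Trim63 and Fbxo32 were -0.98 and -0.98, less than those with all libraries. Of the 20 genes on the list of ligases and FOXO factors, 13 had a negative and 7 a positive log2 fold change, with a median of -0.34 beside -0.0037 over all genes. That median was -0.17 without KPC 1 and -0.20 without KPC 1 and KPC 4. The groups did not overlap for Fbxo30, a ligase of the BMP pathway (lower), and for Foxo6 (higher), each 5% of the list, near the 4.14% of all genes lower and 3.78% higher without overlap. Foxo6 was at 155, 208, 91.1 and 131 in KPC_UA 1 to 4, against 6.52, 83.2, 44.4 and 9.93 in KPC 1 to 4 (log2 fold change 2.57, SE 0.69), opposite in direction to Foxo1 (-0.92) and Foxo3 (-1.08). For Foxo6 too KPC 1 and KPC 4 lay farthest from the KPC_UA values, and KPC 2 came close to KPC_UA 3. Foxo1 and Foxo3 overlapped between groups, and without KPC 1 and KPC 4 they stood at -0.073 and -0.50.

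Proteasome subunits, which form the particle that degrades ubiquitinated proteins, were lower in KPC_UA for 31 of 31 genes (median -0.65, range -1.10 to -0.16). None had an adjusted p under 0.05 in the authors' deposited table, and only Psmc6 and Psmd1 did not overlap between groups (6.45% against 4.14% of all genes lower). By library, the median of the 31 genes relative to the KPC_UA mean was -0.22, 0.16, -0.035 and 0.085 in KPC_UA 1 to 4, against 1.44, -0.10, 0.0024 and 1.26 in KPC 1 to 4. KPC 1 and KPC 4 were high while KPC 2 and KPC 3 lay among the KPC_UA libraries, and without KPC 1 and KPC 4 the median log2 fold change was 0.05. Psmd11, a subunit of the proteasome lid, followed this pattern at 2206, 2263, 2608 and 2439.8 in KPC_UA 1 to 4, against 12361, 2452, 2997 and 7408 in KPC 1 to 4 (log2 fold change -1.10, SE 0.45, -0.19 without KPC 1 and KPC 4). Autophagy and lysosome genes were similar, with 21 of 23 negative (median -0.43, -0.037 without KPC 1 and KPC 4). Gabarapl1, a member of the ATG8 family that coats autophagosomes, was at 914, 1145, 1296 and 1087 in KPC_UA 1 to 4, against 15638, 1242, 2019.7 and 4396 in KPC 1 to 4 (log2 fold change -1.72, SE 0.63, adjusted p = 0.0240 in the authors' deposited table). Only KPC 1, KPC 3 and KPC 4 exceeded the highest KPC_UA value, and without KPC 1 and KPC 4 its log2 fold change was -0.52. Ulk1, the kinase that starts autophagy, and Map1lc3b, another ATG8 family gene, had log2 fold changes of -1.06 and -0.90. Both overlapped between groups, and without KPC 1 and KPC 4 they stood at -0.56 and -0.24.

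Glucocorticoid-responsive genes were the list with the lowest median, -1.06 over 17 genes (-0.43 without KPC 1 and KPC 4), of which 16 were negative. The groups did not overlap for Ddit4, Cebpd, Nfkbia and Errfi1, which is 23.5% of the list beside 4.14% of all genes. Errfi1 had an adjusted p of 0.0472 in the authors' deposited table. Of other members, named after their values were seen, Fkbp5 (-1.43), Zbtb16 (-0.86), Tsc22d3 (-0.36) and Sgk1 (-0.24) were lower with overlap between groups. Dusp1 (0.61) was the only positive member. The list was written with earlier results of these data known, and Ddit4 was among those results. Cebpd, a C/EBP transcription factor of the acute response, was at 138, 325, 687 and 689 normalised reads in KPC_UA 1 to 4, against 12801, 814, 2118 and 5548 in KPC 1 to 4 (log2 fold change -3.12, SE 0.80, adjusted p = 0.0182 in the authors' deposited table). All 4 KPC libraries exceeded the 4 KPC_UA libraries, KPC 2 by the least, and without KPC 1 and KPC 4 the log2 fold change was -1.78. The metallothioneins Mt1 and Mt2, which bind zinc and copper, were chosen after their values were seen. Mt1 was at 179, 283, 239 and 198 in KPC_UA 1 to 4, against 13241, 246, 570.1 and 3174 in KPC 1 to 4 (log2 fold change -2.81, SE 1.01, adjusted p = 0.0212 in the authors' deposited table). Mt2 had an adjusted p of 0.0161 in the authors' deposited table. KPC 2 lay within the KPC_UA range for Mt1 and for Mt2, and without KPC 1 and KPC 4 their log2 fold changes were -0.76 and -0.31, against -2.81 and -3.12 with all libraries. The pair are neighbouring paralogs, so reads could be split between them. By library, the median of the list relative to the KPC_UA mean was -0.32, -0.16, 0.37 and 0.14 in KPC_UA 1 to 4, against 2.37, 0.046, 0.85 and 1.18 in KPC 1 to 4. KPC 1 was the highest library and KPC 2 lay among the KPC_UA libraries, as for the proteasome genes, but KPC 3 was above all 4 KPC_UA libraries.

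The region before the start of 3 of these genes is shown because their promoters differ in what they hold. Sequences are from the RefSeq promoter table for GRCm38.p6, trimmed to bases outside the annotated gene, 5′ to 3′ on the gene's strand, and capitals mark matches to motifs searched on both strands. The Trim63 promoter, chr4:134314870-134315119 on the plus strand, is known for neighbouring glucocorticoid receptor and FOXO elements. It held a match to a glucocorticoid receptor motif, GNACA and TGTNC with 3 bases of any kind between them, and 1 base further a match to the forkhead motif GTAAACA on the other strand. The Mt1 window, chr8:94178839-94179081 on the plus strand, held 1 match to the glucocorticoid receptor motif. The Ddit4 window, chr10:59951835-59952020 on the minus strand, held none of the motifs searched within these bases.
Trim63: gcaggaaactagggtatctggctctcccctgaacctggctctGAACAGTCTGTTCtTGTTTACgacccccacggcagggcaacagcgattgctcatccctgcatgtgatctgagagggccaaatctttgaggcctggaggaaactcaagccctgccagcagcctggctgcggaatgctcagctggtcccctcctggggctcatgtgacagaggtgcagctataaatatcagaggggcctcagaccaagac
Mt1: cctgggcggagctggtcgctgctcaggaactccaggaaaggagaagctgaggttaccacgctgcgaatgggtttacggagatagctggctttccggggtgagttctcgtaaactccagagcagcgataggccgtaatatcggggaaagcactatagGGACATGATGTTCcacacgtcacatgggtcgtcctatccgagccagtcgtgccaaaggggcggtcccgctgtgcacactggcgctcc
Ddit4: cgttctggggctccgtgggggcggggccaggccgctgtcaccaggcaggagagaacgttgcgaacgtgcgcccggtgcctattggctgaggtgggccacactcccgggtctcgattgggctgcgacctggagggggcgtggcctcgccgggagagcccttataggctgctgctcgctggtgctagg

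Of the 73 genes lower in the authors' deposited table, 49 were in the promoter table, with 64 promoters from 250 bases before to 50 after the start. The glucocorticoid receptor motif was in 2 of the 64 (3.12%), those of Trim63 and Mt1, against 0.35% of the 12866 promoters of genes tested and 0.475% of all 32851 promoters. The forkhead motif was in 2 (3.12%), those of Trim63 and Tmem140, against 2.63% of promoters of genes tested and 3.65% of all promoters. The E-box CACGTG was in 7 (10.9%), against 9.89% and 7.15%. The nuclear receptor repeat, AGGTCA repeated with 1 base between, was in 0 of 64, against 0.0233% and 0.0396%. The 2 matches in the Trim63 promoter do not overlap. Among the 26 genes higher in the authors' deposited table, 19 were matched with 22 promoters, in which the E-box was found in that of Actg1 (4.55%), the forkhead motif in 2 promoters of Gm12002 (9.09%) and the other motifs in 0. A match is a string of letters, and none of these shares was tested.

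Fatty acid and fasting genes, many of them targets of PPAR receptors, were lower in KPC_UA for 26 of 28 genes (median -0.33, -0.26 without KPC 1 and KPC 4). No overlap between groups was found for 9 of the 28 (32.1% against 4.14% of all genes), all lower. Like every list described here, this one was written with earlier results of these data known. Angptl4, which rises with fasting and inhibits lipoprotein lipase, was at 20.2, 22.3, 37.9 and 26.6 normalised reads in KPC_UA 1 to 4, against 456, 74.2, 118 and 180.3 in KPC 1 to 4. Each KPC library was above each KPC_UA library, and the 4 KPC_UA values were close together (log2 fold change -2.61, SE 0.49, adjusted p = 4.73e-05 in the authors' deposited table, -1.81 without KPC 1 and KPC 4). Ucp3, a carrier of the mitochondrial inner membrane that rises with fatty acid supply, was at 2426, 2621, 5706 and 3165 in KPC_UA 1 to 4, against 14235, 5572, 11528 and 8514 in KPC 1 to 4. KPC 2 lay just below KPC_UA 3 (log2 fold change -1.52, SE 0.34, adjusted p = 0.0132 in the authors' deposited table, -1.29 without KPC 1 and KPC 4). Pdk4, which switches off pyruvate dehydrogenase in fasting, was at 7406, 7160.3, 29963 and 12226 in KPC_UA 1 to 4, against 213677, 29349.6, 63294 and 47913 in KPC 1 to 4. KPC_UA 3 exceeded KPC 2 by a little, and Pdk4 had no adjusted p under 0.05 in the authors' deposited table (log2 fold change -2.48, SE 0.61, -1.87 without KPC 1 and KPC 4).

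Acot1 and Acot2 are neighbouring thioesterases that release fatty acids from coenzyme A in the cytosol and the mitochondrion, and reads may be shared between the pair. Acot2 was at 351, 458, 666 and 459.7 normalised reads in KPC_UA 1 to 4, against 6536, 778, 1149 and 2671 in KPC 1 to 4 (log2 fold change -2.08, SE 0.56, adjusted p = 0.00436 in the authors' deposited table). Acot1 was at 3.85, 13.03, 35.2 and 16.8 in KPC_UA 1 to 4, against 1394, 56.2, 78.7 and 332 in KPC 1 to 4, with KPC 1 and KPC 4 far above the rest (log2 fold change -3.89, SE 0.96, adjusted p = 0.00798 in the authors' deposited table). Both kept the groups apart, and without KPC 1 and KPC 4 their log2 fold changes were -1.004 for Acot2 and -2.22 for Acot1. Slc25a34, a member of the mitochondrial carrier family, was at 355, 418, 469.9 and 326 in KPC_UA 1 to 4, against 3191, 724, 1185 and 1571 in KPC 1 to 4 (log2 fold change -1.89, SE 0.38, adjusted p = 0.000402 in the authors' deposited table). Slc25a34 is not on the list of fatty acid and fasting genes. Other members of that list whose groups did not overlap, named after their values were seen, were the fatty acid receptor Cd36 (-0.69), the droplet protein Plin5 (-1.16), the mitochondrial entry genes Cpt1b (-0.31) and Slc25a20 (-0.35), Mlycd (-0.84) and Etfdh (-0.31). Slc25a20 was at 2151, 2583, 2002 and 2289 in KPC_UA 1 to 4, against 3186, 2627, 2738 and 2943 in KPC 1 to 4, so that the groups were close but apart. Lpl, which frees fatty acids from circulating triglyceride and is not on that list either, was also lower without overlap (-0.61).

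Tmem82, a membrane protein, had few reads in KPC_UA, at 3.85, 12.1, 10.8 and 4.93 normalised reads in KPC_UA 1 to 4, against 437, 35.97, 29.9 and 76.4 in KPC 1 to 4 (log2 fold change -3.27, SE 0.77, adjusted p = 0.000181 in the authors' deposited table). Tmem82 lies at chr4:141613376-141618633 and the more abundant Slc25a34 next to it at chr4:141618824-141623821, both on the minus strand. Whether Tmem82 reads came from the transcript of Slc25a34 was not tested. Cldn5, the tight junction protein of endothelium, was at 172, 215, 262 and 151 in KPC_UA 1 to 4, against 703, 312, 525 and 451 in KPC 1 to 4 (log2 fold change -1.28, SE 0.27, adjusted p = 0.00743 in the authors' deposited table, -1.05 without KPC 1 and KPC 4). It was the only one of 12 endothelial markers whose groups did not overlap (8.33%, beside 4.14% of all genes lower), and the median of the 12 was 0.053, and -0.049 without KPC 1 and KPC 4. The summed level of the 12 markers ranged from 8905 to 12598 normalised reads in KPC_UA and from 10088 to 11594 in KPC.

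Growth arrest and stress signalling genes split into those apart in all libraries and those high in KPC 1 and KPC 4. Cdkn1a (p21), an inhibitor of cyclin-dependent kinases, was at 289, 299.7, 412 and 397 normalised reads in KPC_UA 1 to 4, against 10355, 479, 578 and 1079 in KPC 1 to 4. The groups did not overlap, but KPC 1 stood far above the next KPC library, and the authors' table gives Cdkn1a no adjusted p (log2 fold change -1.94, SE 0.80, -0.61 without KPC 1 and KPC 4). Gadd45a, which rises in denervated and fasting muscle, was at 566, 1141, 1205 and 947 in KPC_UA 1 to 4, against 4901, 1109, 1744 and 4405 in KPC 1 to 4. KPC 2 lay among the KPC_UA libraries (log2 fold change -1.45, SE 0.46, adjusted p = 0.0430 in the authors' deposited table, -0.59 without KPC 1 and KPC 4). The p53 and growth arrest list had 9 of 12 genes negative (median -0.77, -0.41 without KPC 1 and KPC 4). Trp53inp2, a regulator of autophagy in muscle, was the member that was higher without overlap (log2 fold change 1.12, SE 0.38). It made 8.33% of the list, beside 3.78% of all genes higher, while 25% of the list was lower without overlap, beside 4.14% of all genes. Genes of the integrated stress response and amino acid supply had a median of -0.43 over 14 genes, which was 0.27 without KPC 1 and KPC 4. In that list Eif4ebp1, a repressor of cap-dependent translation, was at 767, 1362, 1952 and 1551 in KPC_UA 1 to 4, against 12369.7, 1402, 2287 and 11620.1 in KPC 1 to 4 (log2 fold change -1.80, SE 0.67, adjusted p = 0.0272 in the authors' deposited table). KPC 1 and KPC 4 were several times above all other libraries, and without them Eif4ebp1 was at -0.42. Atf4, the transcription factor of this response, stood at -0.74 with all libraries and at -0.12 without KPC 1 and KPC 4.

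**Figure D3:**
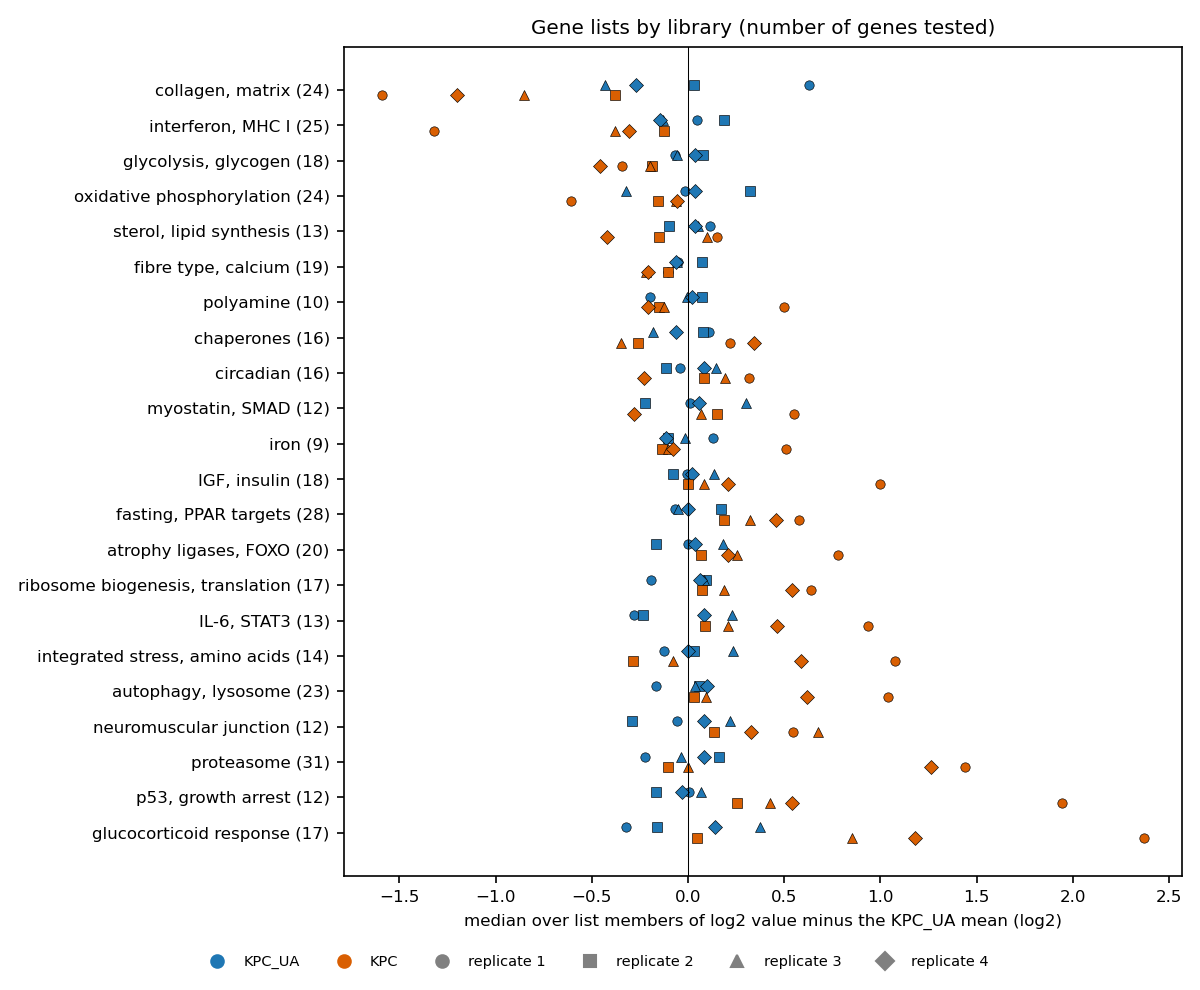
For each of 22 gene lists, the median over its genes of the log2 value minus the KPC_UA mean is plotted by library, KPC_UA above KPC in each row. KPC 1 is the KPC library farthest from the KPC_UA mean in 17 of the 22 lists and KPC 2 in 0, and for glucocorticoid-responsive genes KPC 1 reaches 2.37.

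Among the genes higher in KPC_UA, Nmrk2 makes nicotinamide mononucleotide in muscle and was at 3093, 3076, 1138 and 2237 normalised reads in KPC_UA 1 to 4, against 239.96, 906, 643 and 352 in KPC 1 to 4. All KPC_UA libraries exceeded the highest KPC library, KPC 2 (log2 fold change 2.23, SE 0.44, adjusted p = 0.00116 in the authors' deposited table, 1.54 without KPC 1 and KPC 4). Smox, a spermine oxidase that is known to decline in atrophying muscle, was at 10028, 10287, 9647 and 9953 in KPC_UA 1 to 4, against 1828, 5591, 5118 and 1688 in KPC 1 to 4. The KPC_UA values were nearly equal, while KPC 2 and KPC 3 were lower and KPC 1 and KPC 4 lower still (log2 fold change 1.70, SE 0.38, adjusted p = 0.0301 in the authors' deposited table, 0.90 without KPC 1 and KPC 4). Smox lies at chr2:131491496-131525922 on the plus strand. Of the other polyamine genes, Amd1, which supplies the aminopropyl donor, was at 10853, 15818, 19694 and 14608 in KPC_UA 1 to 4, against 1821, 13028, 8759 and 3121 in KPC 1 to 4, with KPC 2 among the KPC_UA values (log2 fold change 1.56, SE 0.54, 0.48 without KPC 1 and KPC 4). The polyamine list as a whole had a median of 0.10 over 10 genes, and 0.19 without KPC 1 and KPC 4.

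Tfrc, which takes up transferrin-bound iron, was at 5224, 1228, 971 and 1268 normalised reads in KPC_UA 1 to 4, against 237, 868, 538 and 138 in KPC 1 to 4. KPC_UA 1 was far above the other 3 KPC_UA libraries, and the groups did not overlap (log2 fold change 2.25, SE 0.64, adjusted p = 0.0367 in the authors' deposited table, 1.29 without KPC 1 and KPC 4). The 9 iron genes had a median of -0.22, which was 0.13 without KPC 1 and KPC 4, and no other member kept the groups apart. Tfrc alone made 11.1% of that list, beside 3.78% of all genes higher without overlap. G0s2, an inhibitor of adipose triglyceride lipase, was at 719, 427, 295 and 347 in KPC_UA 1 to 4, against 53.5, 218, 174 and 61.1 in KPC 1 to 4 (log2 fold change 1.98, SE 0.47, adjusted p = 0.0269 in the authors' deposited table, 1.11 without KPC 1 and KPC 4). Gamt, the methyltransferase of the last step of creatine synthesis, was at 179, 177, 93.8 and 109 in KPC_UA 1 to 4, against 23.5, 69.7, 61.00 and 38.96 in KPC 1 to 4 (log2 fold change 1.57, SE 0.37, adjusted p = 0.0168 in the authors' deposited table). KPC 1 and KPC 4 were the lowest libraries for both genes. Dupd1, a dual-specificity phosphatase of muscle, was at 562, 648, 434 and 519.9 in KPC_UA 1 to 4, against 292, 292, 212 and 125 in KPC 1 to 4 (log2 fold change 1.29, SE 0.28, adjusted p = 0.0133 in the authors' deposited table, 1.10 without KPC 1 and KPC 4).

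Actg1, the cytoplasmic gamma actin, was at 3453, 2881, 1929 and 2092 normalised reads in KPC_UA 1 to 4, against 1342, 1261, 1411 and 1271 in KPC 1 to 4. Its KPC values were within a narrow range and the 4 KPC_UA values were all above them, so the fold change hardly moved without KPC 1 and KPC 4 (log2 fold change 0.93, SE 0.21, 0.92 without them, adjusted p = 0.00947 in the authors' deposited table). Cilp, a matrix protein of cartilage and tendon that binds growth factors, was at 1117, 337, 202 and 479 in KPC_UA 1 to 4, against 193, 171, 77.6 and 45.1 in KPC 1 to 4. KPC_UA 1 was the highest, the groups stood apart by a small gap, and the difference was kept without KPC 1 and KPC 4 (log2 fold change 2.06, SE 0.57, 1.91 without them, adjusted p = 0.0263 in the authors' deposited table). Ccdc102a, a coiled-coil protein, was at 117, 119, 82.98 and 110.5 in KPC_UA 1 to 4, against 46.9, 60.7, 51.02 and 51.9 in KPC 1 to 4 (log2 fold change 1.01, SE 0.22, adjusted p = 0.00825 in the authors' deposited table). Its groups did not overlap, and without KPC 1 and KPC 4 its log2 fold change was 0.92.

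**Figure D4:**
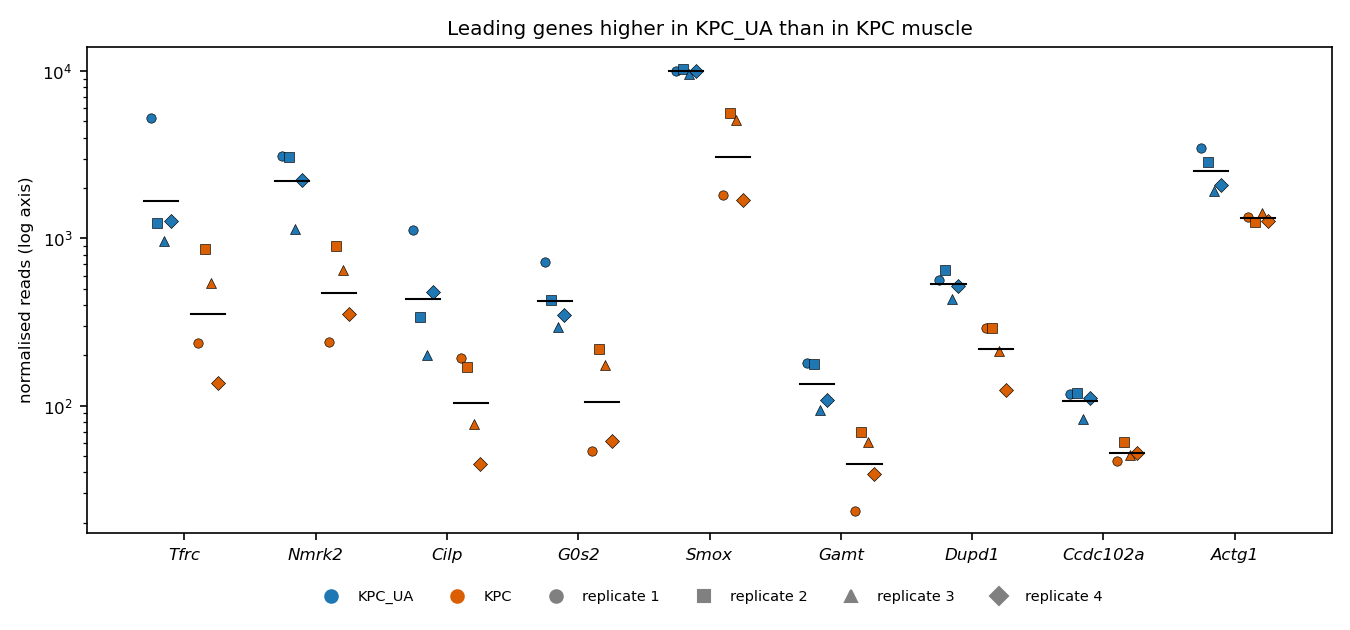
Normalised reads (log axis) of leading genes higher in KPC_UA than in KPC are plotted for each library, with replicate numbers as symbols and a line at the mean of the log values of each group. For Smox the KPC_UA points lie between 9647 and 10287 and the KPC points between 1688 and 5591, and for Tfrc KPC_UA 1 stands above the others.

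Collagen and matrix genes were the list with the highest median among the 22 pathway lists, 0.92 over 24 genes, of which 22 were positive and 16 had an unadjusted limma p under 0.05 (66.7% against 6.18% of all genes higher). None passed the authors' deposited threshold. The groups did not overlap for Col5a1, Col6a1, Col15a1 and Lum (16.7% against 3.78%). Lum, a proteoglycan that organises collagen fibrils, was at 296, 184, 174 and 149.96 normalised reads in KPC_UA 1 to 4, against 43.04, 134, 78.7 and 91.7 in KPC 1 to 4 (log2 fold change 1.26, SE 0.35, 0.91 without KPC 1 and KPC 4). Col3a1, a fibrillar collagen, was at 3536, 2237, 1529.7 and 1704 in KPC_UA 1 to 4, against 402, 1539, 1029 and 393 in KPC 1 to 4, where KPC 2 just exceeded KPC_UA 3 (log2 fold change 1.59, SE 0.45, 0.76 without KPC 1 and KPC 4). Col1a2, a chain of type I collagen, had a log2 fold change of 1.15, and Col15a1 of basement membranes 1.91. By library, the median of the list relative to the KPC_UA mean was 0.63, 0.033, -0.43 and -0.27 in KPC_UA 1 to 4, against -1.59, -0.38, -0.85 and -1.20 in KPC 1 to 4. KPC_UA 1 was the highest, KPC 1 and KPC 4 were the lowest, KPC 2 was above KPC_UA 3, and without KPC 1 and KPC 4 the median log2 fold change was 0.55.

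Markers of the cells that make matrix were mostly higher, but their lists share members with the collagen list. Lum and Dcn are also fibro-adipogenic markers, and Fmod is also a tendon marker. Of 12 fibro-adipogenic markers 11 were positive (median 0.55, 0.37 without KPC 1 and KPC 4), and Lum, Smoc2 and Mfap5 did not overlap, 3 of 12 or 25% beside 3.78% of all genes higher. Their summed level was 11458 to 13939 normalised reads in KPC_UA and 8535 to 15621 in KPC, so the sums overlapped. All 6 tendon markers tested were positive (median 1.01, 0.53 without KPC 1 and KPC 4), with none apart and summed levels of 561 to 2155 in KPC_UA and 392 to 1393 in KPC. Thbs4, a thrombospondin of tendon, was at 1569, 1172, 420.3 and 1057 in KPC_UA 1 to 4, against 609, 816, 406 and 256 in KPC 1 to 4 (log2 fold change 0.99, SE 0.44). The part of tendon or stromal cells in the collagen difference was not tested. Adipocyte markers had a median of 0.73 over 7 genes, but 0.15 where a mean of at least 50 was required. Lpl and Fabp4 were negative (-0.61 and -0.19), Lpl without overlap, and the summed level, mostly Lpl, was 12184 to 18577 in KPC_UA and 17579 to 27645 in KPC. Plin1, which coats the fat droplet of adipocytes, was at 33.7, 26.99, 9.92 and 21.7 in KPC_UA 1 to 4, against 5.22, 5.62, 5.55 and 3.82 in KPC 1 to 4, with few reads and no overlap (log2 fold change 1.88, SE 0.42, adjusted p = 0.0182 in the authors' deposited table, 1.75 without KPC 1 and KPC 4). Cfd, or adipsin, stood at 1.20 with overlap.

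Glycolytic genes were slightly higher in KPC_UA, 15 of 18 of them (median 0.25, 0.20 without KPC 1 and KPC 4). No overlap between groups was found for 7 of the 18 (38.9% against 3.78% of all genes), and none passed the authors' deposited threshold. Ldha, which makes lactate, was at 72502, 79766, 68527 and 74716 normalised reads in KPC_UA 1 to 4, against 27464, 60637, 53781 and 35079.5 in KPC 1 to 4 (log2 fold change 0.81, SE 0.25). The lowest KPC_UA library was above the highest KPC library, KPC 2, and without KPC 1 and KPC 4 the log2 fold change was 0.37. Tpi1, triosephosphate isomerase, was similar (log2 fold change 0.84, SE 0.23, 0.45 without KPC 1 and KPC 4). The other 5 were Slc2a4, the insulin-responsive glucose transporter, and Pgam2, Pkm, Pfkm and Pgk1. Pfkfb3, which makes the activator of phosphofructokinase, went the other way, at 3422, 3789.5, 6718 and 6725 in KPC_UA 1 to 4, against 16546, 15762, 12076 and 5577 in KPC 1 to 4. KPC 4 was below the 2 highest KPC_UA libraries, so the groups overlapped (log2 fold change -1.23, SE 0.37, -1.49 without KPC 1 and KPC 4). All 24 nuclear-encoded oxidative phosphorylation genes were positive, but by a median of 0.18 (0.082 without KPC 1), and none kept the groups apart.

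Fibre genes and myofibre markers differed little. The 12 myofibre markers, which include Acta1, Ckm and Myh4, had a median of 0.13 and a summed level of 3904280 to 4739220 normalised reads in KPC_UA and 3988710 to 4437150 in KPC. The fast light chain Mylpf was the only one that did not overlap (log2 fold change 0.46, SE 0.21), 8.33% of the 12 beside 3.78% of all genes higher. Casq1, the calcium store protein of fast fibres, was at 47997, 57534, 47461 and 46689 in KPC_UA 1 to 4, against 8208, 42706, 29992 and 11779.8 in KPC 1 to 4. KPC 2 came close to the KPC_UA libraries and KPC 1 and KPC 4 were far below (log2 fold change 1.41, SE 0.45, 0.47 without KPC 1 and KPC 4). Myh2, the myosin of IIa fibres, was highest in KPC_UA 1 and overlapped between groups (log2 fold change 1.09, SE 0.48).

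Growth factor genes took no common direction. Igf1, which drives muscle growth, was at 275, 130.3, 83.9 and 87.8 normalised reads in KPC_UA 1 to 4, against 69.1, 101, 51.02 and 61.9 in KPC 1 to 4. KPC 2 lay among the KPC_UA values (log2 fold change 0.89, SE 0.39, 0.82 without KPC 1 and KPC 4). Igf1r, its receptor, was lower without overlap (log2 fold change -0.85, SE 0.30). It made 5.56% of the insulin and IGF list, near the 4.14% of all genes lower without overlap. Irs2, a docking protein of the insulin receptor, was at -1.60 (adjusted p = 0.0236 in the authors' deposited table) but -0.67 without KPC 1 and KPC 4. Mstn, the inhibitor of muscle growth, was at 450.03, 578, 1153 and 785 in KPC_UA 1 to 4, against 5283, 1186, 1134 and 1213 in KPC 1 to 4. KPC 1 was far above the other 3 KPC libraries, which were nearly equal and close to KPC_UA 3 (log2 fold change -1.30, SE 0.49, -0.73 without KPC 1 and KPC 4). Its relative Gdf11 was in the other direction (log2 fold change 1.78, SE 0.41, adjusted p = 0.0327 in the authors' deposited table), with KPC 2 overlapping KPC_UA 3. Il6ra, the interleukin-6 receptor, was at 113, 125, 462 and 201 in KPC_UA 1 to 4, against 6069, 290.00, 652 and 1605 in KPC 1 to 4 (log2 fold change -2.61, SE 0.82, -1.19 without KPC 1 and KPC 4). KPC_UA 3 exceeded KPC 2, so the groups overlapped, and Stat3, the factor downstream, differed less (-0.41).

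Ribosome biogenesis and translation genes had a median of -0.36 over 17 genes, which was -0.22 without KPC 1 and -0.14 without KPC 1 and KPC 4. Myc, a driver of ribosome production, was lower without overlap at 30.8, 49.3, 84.8 and 94.7 in KPC_UA 1 to 4, against 138, 100.04, 163 and 215 in KPC 1 to 4 (log2 fold change -1.31, SE 0.38, -1.10 without KPC 1 and KPC 4). Ncl and Npm1, which act in the nucleolus, also did not overlap, so that 17.6% of the list was lower without overlap beside 4.14% of all genes. Interferon and MHC class I genes were positive for 23 of 25 (median 0.50, 0.22 without KPC 1 and KPC 4), and of these Rsad2, an antiviral enzyme, did not overlap (log2 fold change 0.71, SE 0.25). That is 4% of the list, near the 3.78% of all genes higher without overlap. KPC 1 was the lowest library for that list, at -1.32 relative to the KPC_UA mean. Among 16 circadian genes Dbp, an output factor of the clock, was at 1377, 1732, 974 and 1823 in KPC_UA 1 to 4, against 53.5, 936, 631 and 300.2 in KPC 1 to 4 (log2 fold change 2.19, SE 0.73, 0.90 without KPC 1 and KPC 4). Bhlhe41, a clock repressor, was higher and Arntl (Bmal1), the activator, lower, each without overlap, and the list median was -0.052, and -0.18 without KPC 1 and KPC 4. Dbp and Bhlhe41 made 12.5% of the list, beside 3.78% of all genes higher, and Arntl 6.25%, beside 4.14% of all genes lower. Srebf1, a regulator of lipid synthesis, was higher without overlap (log2 fold change 0.69, SE 0.22). It made 7.69% of the sterol and lipid synthesis list, beside 3.78% of all genes higher. Neuromuscular junction genes had a median of -0.51, and -0.29 without KPC 1 and KPC 4. With all libraries and without those 2, the medians were -0.41 and -0.24 for interleukin-6 and STAT3 genes, -0.32 and -0.047 for the insulin and IGF axis, and -0.20 and -0.26 for myostatin and SMAD genes. They were 0.17 and 0.059 for sterol and lipid synthesis, 0.14 and 0.22 for fibre and calcium genes, and -0.0065 and 0.34 for chaperones. Leaving out KPC 1 alone gave medians of -0.42 for the proteasome, -0.23 for autophagy, -0.33 for p53 and growth arrest, 0.044 for the integrated stress response, 0.23 for interferon genes, -0.10 for the insulin and IGF axis and 0.34 for fibro-adipogenic markers.

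Of the markers of other cells in the 6 lists given next, no member had its 2 groups apart. The median log2 fold change was 0.055 for 11 macrophage markers, 0.13 for 9 smooth muscle and pericyte markers, 0.40 for 6 satellite cell markers, -0.065 for 5 Schwann cell markers, -0.24 for 6 erythroid genes and -0.16 for 4 neutrophil genes. Without KPC 1 and KPC 4 the medians were 0.15, 0.13, 0.14, 0.20, 0.24 and -0.18 in the same order. Erythroid genes summed to 2486 to 15939 normalised reads in KPC_UA and 2793 to 10637 in KPC. No marker of lymphocytes, of pancreas or tumour epithelium or of liver was among the listed genes.

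The genes past the deposited threshold are described next as sets, by library. In the 73 lower genes KPC 1 was the highest KPC library for 66 and KPC 2 the lowest for 57. Their library medians relative to the KPC_UA mean were -0.31, -0.11, 0.32 and 0.066 in KPC_UA 1 to 4, against 3.24, 0.62, 1.29 and 2.04 in KPC 1 to 4. All 4 KPC libraries were above the KPC_UA libraries in the median, but to a different extent. The median log2 fold change of the 73 was -1.74, and -0.88 without KPC 1 and KPC 4, over the 70 that had a value there, all of them negative. The other 3 had a mean under 10 normalised reads in the remaining libraries and were not tested. In the 26 higher genes the library medians were 0.39, 0.13, -0.37 and -0.10 in KPC_UA 1 to 4, against -2.46, -0.97, -1.30 and -1.98 in KPC 1 to 4. The median log2 fold change of the 26 was 1.79, and 1.26 without KPC 1 and KPC 4, with all 26 still positive. The deposited test used these same libraries, so that these counts describe the genes and test nothing. The median exonic length was 3404 bases for the lower and 3332.5 for the higher genes, against 4294 for all genes tested.

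**Figure D5:**
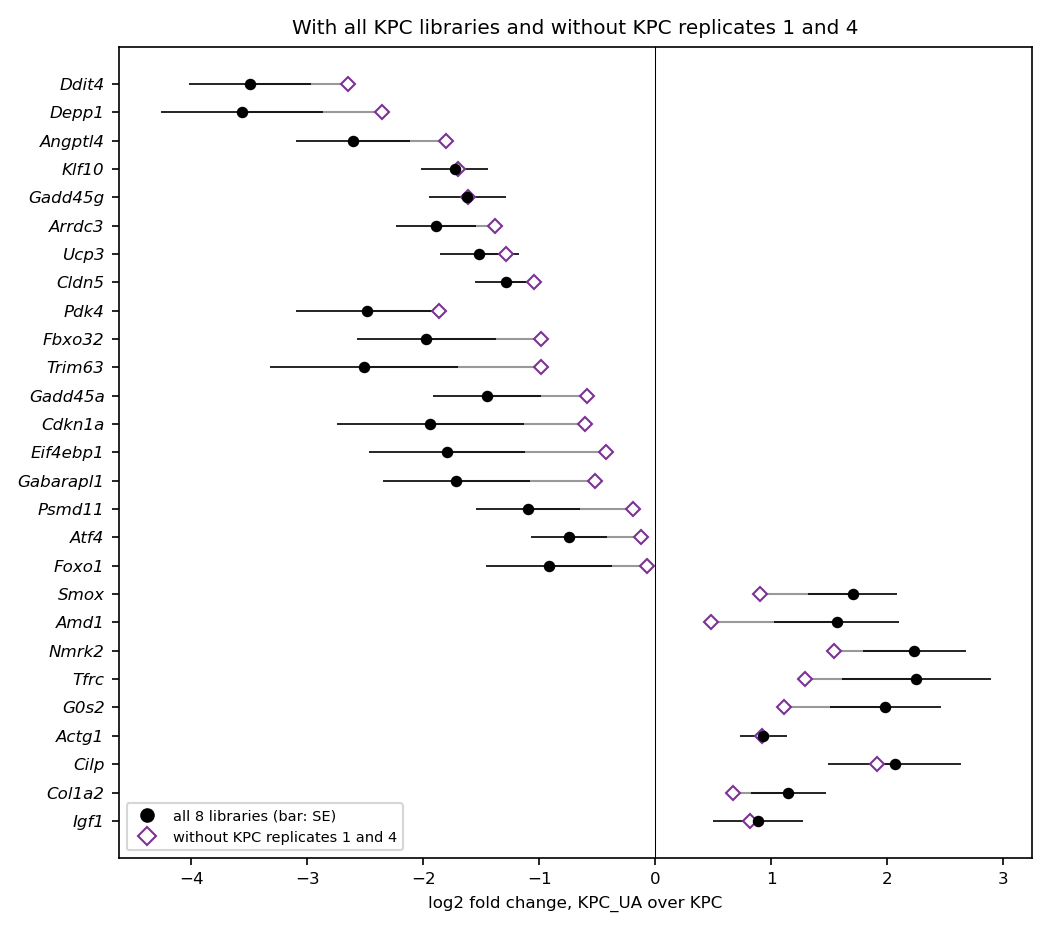
The log2 fold change of named genes with all libraries is plotted beside the value without KPC 1 and KPC 4. Ddit4 is at -3.50 and -2.65 and Klf10 at -1.73 and -1.70, while Eif4ebp1 is at -1.80 and -0.42 and Foxo1 at -0.92 and -0.073.

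Values against Sham muscle come from tables that were normalised separately and share the KPC_UA or the KPC libraries, so they are set side by side and no comparison between them is made. Ddit4 had a log2 fold change of 0.15 in KPC_UA against Sham and 3.63 in KPC against Sham. For Klf10 these were -0.22 and 1.50, for Angptl4 -0.34 and 2.26, and for Arrdc3 -0.01 and 1.87. Gadd45g was at -0.63 in KPC_UA against Sham and 0.98 in KPC against Sham. In the same order, Trim63 was at 0.54 and 3.05, Fbxo32 at 0.74 and 2.71, and Slc25a34 at 0.92 and 2.80. Of the genes higher in KPC_UA, Smox was at -0.20 in KPC_UA against Sham and -1.91 in KPC against Sham, Actg1 at -0.017 and -0.95, Nmrk2 at -0.70 and -2.94, and Tfrc at -1.56 and -3.82. Arnt2 and Map3k7cl, which were 1.65 and 1.64 in KPC_UA over KPC (for Map3k7cl adjusted p = 0.0430 in the authors' deposited table), stood at -1.86 and -1.79 in KPC_UA against Sham and at -3.51 and -3.43 in KPC against Sham. Rassf4 was at -1.79 in KPC_UA over KPC, with groups that overlapped.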

How the data were processed

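RNA was sequenced from frozen tibialis anterior muscle after extraction with an RNeasy kit, per the labels' protocols. The submitters' processing notes name GRCm38, Subread 1.5.2, featureCounts and bcl2fastq 2.17, with aligner, annotation, strand use and test not given in the sources used here.

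Per the file headers, the authors deposited a normalised signal for each gene and library, beside a log2 fold change, a p-value and an adjusted p-value. The values gave whole reads for 100% of entries after division by 1 step per library (tolerance 0.01), so they are read counts divided by a size factor, and DESeq2 1.42.0 on those reads matched the deposited fold changes of 100% of genes and the deposited p-values of 99.97% (within 0.01 on the log2 scale, and within 0.01 of the p-value's own size). The lowest read sum of a listed gene was 81, so weaker genes were not analysed here. Reads per library were 22.3 to 32.0 M, and the median SE of a log2 fold change was 0.27.

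Genes were tested two-sided with limma 3.58.1 (R 4.3.3; trend and robust options) on log2(value + 1), a scale that understates changes of low genes, for genes with a mean of at least 10, with Benjamini-Hochberg adjustment over all genes and a threshold of 0.05. Alternatives were edgeR 4.0.16 and DESeq2 on the recovered reads, other pseudocounts, filters, scalings, library weights, a replicate block and libraries left out. Limma, edgeR and DESeq2 were each tested on simulated data with known changes. The simulation gave both groups the same spread and no outlying library, so it does not cover the wider spread of the KPC libraries. Non-overlap means that every value of 1 group lies above every value of the other.

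Symbols were matched by gene identifier for 13529 of 13557 genes, and coordinates and exonic lengths are from GENCODE M21, counted from 1. The members, the 22 pathway and 14 marker lists and the naming rule were chosen with earlier results of these data known. The rule took the 10 largest changes in each direction past the authors' deposited adjusted p with a mean of at least 50 and no overlap, up to 3 members of each list, the 5 smallest limma p and a fixed list of genes, and exceptions are marked as chosen after their values were seen. Some genes that the rule took are not reported here. No sample was left out, and there were 0 columns of other samples.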

Additional observations from a re-analysis of the deposited data

Results flagged for a closer look

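A sample far from the other 3 of its group was found in 8 of the 236 groups of 4 values examined (118 genes in 2 groups), where the gap to the nearest sample on the log2 scale, divided by the range of the group, exceeded Dixon's critical value. Chance flags about 1 in 20 groups. Tfrc, the transferrin receptor, was at 5224 normalised reads in KPC_UA 1, against 971 to 1268 in the other KPC_UA libraries, a gap of 0.842 of the range. Mstn was at 5283 in KPC 1, against 1134 to 1213 in the other KPC libraries (0.956). Casq1 was at 57534 in KPC_UA 2, against 46689 to 47997 (0.868). Trp53inp2 was at 14925 in KPC_UA 1, against 11525 to 11958 (0.857), and the endothelial receptor Tek at 663 in KPC_UA 1, against 481 to 494 (0.918). Of the low values, Mrc1, a macrophage mannose receptor, was at 89.3 in KPC_UA 3, against 120.2 to 121 (0.969). The proteasome genes Psma5 and Psmd1 were at 1073 and 3319 in KPC_UA 1, against 1455 to 1521 (0.873) and 4053 to 4123 (0.921) in the other KPC_UA libraries. Of the 8 samples, 5 were KPC_UA 1.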

How the results depend on the processing

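The count of 0 genes called by limma was also obtained with pseudocounts of 0.5 and 5, no filter, a mean of at least 50, TMM rescaling, limma without its trend and robust options, quantile normalisation, a weight per group and edgeR. It was 100 with DESeq2, 99 by the authors' adjusted p-values, 2988 with a weight per library and 2 without KPC 1 and KPC 4 together. Leaving out each library in turn gave 0 to 3 calls, the 3 without KPC 2. Non-overlapping genes numbered 594 to 1294 higher and 630 to 1489 lower with each library left out. They were most without KPC 2, KPC_UA 3 or KPC 4 and fewest without KPC 1. Without KPC 1 and KPC 4 together they numbered 1391 higher and 1532 lower. Fewer samples overlap less often, and the part of this in the counts was not tested. No pairing of the samples by replicate number was seen (correlations of deviations -0.088, 0.029, -0.0094 and 0.070), though such values cannot exclude it. With the replicate number as a block limma called 0. Without KPC 1 and KPC 4 the median changed sign for 4 of the 22 pathway lists, to 0.27 for the integrated stress response, 0.050 for the proteasome, 0.13 for iron genes and 0.34 for chaperones, and it was -0.047 for the insulin and IGF axis and -0.14 for ribosome biogenesis, which ranged from -0.46 to -0.22 with each library left out. The adipocyte median was 0.15 at a mean of at least 50, where fewer genes are tested. Named genes whose sign turned without KPC 1 and KPC 4 were Alas2 (0.082), Hbb-bt (0.20), Hmox1 (0.0097), Hsp90ab1 (0.0090), Mbp (0.15), Ccr2 (-0.25, and -0.062 with a weight per library), Mrc1 (-0.17), Smad3 (-0.010) and Tek (-0.080). With each library left out, Alas2 ranged from -0.97 to 0.037, Hbb-bt from -0.84 to 0.0030 and Mrc1 from -0.15 to 0.36. Searching only the 250 bases before the start left 6 E-box promoters among the lower genes. The cause of these changes was not tested.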

Other observations

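Other genes past the authors' deposited threshold, chosen after their values were seen, include several whose differences did not rest on KPC 1 and KPC 4. Chrna2, a nicotinic receptor subunit, was at 5.77, 16.8, 17.1 and 25.7 normalised reads in KPC_UA 1 to 4, against 166, 56.2, 62.1 and 44.3 in KPC 1 to 4 (log2 fold change -2.22, SE 0.51, adjusted p = 0.00668 in the authors' deposited table). The groups were apart, and the log2 fold change without KPC 1 and KPC 4 was -1.95. Apold1, an early response gene of endothelium, was at 33.7, 40.02, 36.98 and 37.5 in KPC_UA 1 to 4, against 287, 103, 209.6 and 53.5 in KPC 1 to 4 (log2 fold change -1.84, SE 0.46, adjusted p = 0.00400 in the authors' deposited table, -1.97 without KPC 1 and KPC 4). Here KPC 4 was the lowest KPC library. The transcription factor Klf6 was at 517, 625, 573 and 678 in KPC_UA 1 to 4, against 1757, 989, 1431 and 1067 in KPC 1 to 4 (log2 fold change -1.10, SE 0.21, adjusted p = 0.00188 in the authors' deposited table), and it stood at -0.998 without KPC 1 and KPC 4. Dgat2, an enzyme of triglyceride synthesis, was at 683, 874, 1024 and 814 in KPC_UA 1 to 4, against 3451, 1066, 1452 and 2326 in KPC 1 to 4 (log2 fold change -1.16, SE 0.33, adjusted p = 0.0431 in the authors' deposited table). KPC 1 and KPC 4 were its highest libraries, and without them its log2 fold change was -0.57. Retreg1, a receptor for autophagy of the endoplasmic reticulum, was at 5776, 5397, 7193 and 5504 in KPC_UA 1 to 4, against 89700.00, 8166, 11191 and 25129 in KPC 1 to 4. KPC 1 and KPC 4 were far above the rest (log2 fold change -1.85, SE 0.61, -0.69 without them, adjusted p = 0.0133 in the authors' deposited table).

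On the higher side, Clu, the secreted chaperone clusterin, was at 1040.4, 1075, 1034 and 868 normalised reads in KPC_UA 1 to 4, against 605, 758, 588 and 616 in KPC 1 to 4 (log2 fold change 0.65, SE 0.16, adjusted p = 0.0261 in the authors' deposited table). Its KPC values were close together and below every KPC_UA value. Npr3, the clearance receptor of natriuretic peptides, was at 208, 145, 197 and 190.4 in KPC_UA 1 to 4, against 103, 109, 109.8 and 81.7 in KPC 1 to 4 (log2 fold change 0.86, SE 0.20, adjusted p = 0.0174 in the authors' deposited table), and Pthlh, the parathyroid hormone-like peptide, at 35.6, 38.2, 18.9 and 31.6 in KPC_UA 1 to 4, against 18.3, 6.74, 8.87 and 6.88 in KPC 1 to 4 (log2 fold change 1.58, SE 0.39, adjusted p = 0.0431 in the authors' deposited table). Pthlh had few reads, and KPC 1 was the highest KPC library. Without KPC 1 and KPC 4 the log2 fold changes were 0.58 for Clu, 0.74 for Npr3 and 1.83 for Pthlh. The Mir1a-1 gene was at 31.7, 13.96, 36.1 and 26.6 in KPC_UA 1 to 4, against 1.3, 6.74, 5.55 and 11.5 in KPC 1 to 4 (log2 fold change 2.11, SE 0.54, adjusted p = 0.0327 in the authors' deposited table). Its annotated gene is the precursor, so these reads do not measure the mature miRNA.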
